A study of Mus musculus with 2 samples.

Results

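The 10 genes followed link endothelin receptors to the release of stored calcium: *Gnaq* and *Gna11*, the phospholipase genes *Plcb1*, *Plcb2*, *Plcb3* and *Plcb4*, and the release channel genes *Itpr1*, *Itpr2*, *Itpr3* and *Ryr2*. They were chosen by name as members of the signalling path below those receptors, and all 10 were among the 55450 genes counted. In this path, a receptor for endothelin activates a G protein of the Gq class, whose alpha subunits *Gnaq* and *Gna11* encode. The subunit activates phospholipase C beta, which cuts a membrane lipid into diacylglycerol and inositol trisphosphate (IP3). IP3 opens its receptors, the *Itpr* channels, in the membrane of the endoplasmic reticulum, and ryanodine receptors such as *Ryr2* open when calcium itself rises. In oligodendrocyte (OL) precursor cells (OPCs) such calcium signals accompany proliferation, differentiation and myelination.

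Single-cell transcripts of cerebral cortex from C57BL/6 mice were measured in 1 control library and 1 library of preterm white matter injury (WMI). Per the labels, WMI was induced on postnatal day 7 by ligation of the right common carotid artery with 1 h of hypoxia, and cortex was collected on postnatal day 14, from the ligated side in WMI and from the same side in controls, at 2 weeks of age. The paper gives an earlier surgery, an earlier collection and a longer hypoxia, and it describes dissociated cells where the labels describe nuclei. The paper also speaks of several replicates per group and calls the comparison tissue a sham hemisphere. The labels do not say whether the control mice had surgery or how many mice entered each library, and 1 library per group was analysed here. With 1 library per group there was no test: condition, mice and library cannot be told apart, and every interval below is an exact 95% interval that covers counting error only. RNA molecules were counted by their unique molecular identifiers (UMIs). Levels are given in CPM, the UMIs of a gene over all UMIs of the cells of a class, scaled to counts per 1e6.

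After filters, 8812 control and 7586 WMI cells remained, with medians of 4368 and 5030.5 UMIs per cell, and 36 barcodes occurred in both libraries. Clusters were named from marker genes, with "-like" understood for every class: excitatory neurons (4288 control and 2814 WMI cells), inhibitory neurons (478 and 378), astrocytes (500 and 637), OPCs (315 and 477), OLs at the premyelinating stage (pre-OLs, 151 and 418), mature OLs (90 and 49) and microglia (429 and 1139). The summed level of 10 OPC markers was 13459 CPM in control OPCs and 2103 in control excitatory neurons, and that of 10 pre-OL markers was 18262 in control pre-OLs and 693 in those neurons. Clusters that met the marker rule of a class but were then left without a name held 2490 control and 1460 WMI cells. Of these, 2349 control and 179 WMI cells lay in 1 cluster, and 47 and 1093 in another. They entered no comparison of classes. A further cluster of 43 and 79 cells had markers of more than 1 cell type. Its values are given below apart from the classes above. Between 63.0% and 69.4% of the WMI cells of each class held *Xist*, against 0 to 2 control cells per class, so the libraries differed in the sex of their cells. Mitochondrial UMIs made up a median of 0.0615% in control and 0.449% in WMI cells.

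The members differed in depth with the length of the gene. *Gnaq*, *Plcb1*, *Plcb4*, *Itpr1*, *Itpr2* and *Ryr2* span from 254633 to 689192 bp, and each had at least 4449 UMIs in the control and 5701 in the WMI library. *Gna11*, *Plcb2*, *Plcb3* and *Itpr3* span from 16467 to 64920 bp, and none had more than 857 and 876 UMIs. *Plcb2* had 72 and 133 UMIs, *Plcb3* 79 and 184, and *Itpr3* 98 and 56. The level of 1 gene is therefore compared below between cells and not with the level of another gene. *Plcb1* lies on chromosome 2 (GRCm38, 134786067 to 135475258, + strand) over the antisense genes *9630028H03Rik* and *4930545L23Rik*, which had 5344 and 1901 UMIs. *Plcb3*, itself at 79 and 184 UMIs, overlaps the protein-coding gene *Ppp1r14b* on the opposite strand, which had 1710. *Gnaq*, *Plcb4*, *Itpr1*, *Itpr2*, *Itpr3* and *Ryr2* also overlap other annotated genes. The strand setting of the counting is not given in the sources used here, so reads of any of these genes may be shared.

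*Itpr2*, on chromosome 6 (146108299 to 146502223, - strand), and *Ryr2*, on chromosome 13 (11553102 to 12106945, - strand), encode the release channels that were highest in pre-OLs and in neurons. Their promoter windows are shown because the results turn on these channels, with 250 bases before and 50 after the annotated start (RefSeq, GRCm38.p6, 5′ to 3′ on the strand of the gene). Capitals mark matches to the E-box CANNTG, the motif of basic helix-loop-helix factors, which was searched on both strands.
Itpr2, chr6:146502174-146502473, - strand: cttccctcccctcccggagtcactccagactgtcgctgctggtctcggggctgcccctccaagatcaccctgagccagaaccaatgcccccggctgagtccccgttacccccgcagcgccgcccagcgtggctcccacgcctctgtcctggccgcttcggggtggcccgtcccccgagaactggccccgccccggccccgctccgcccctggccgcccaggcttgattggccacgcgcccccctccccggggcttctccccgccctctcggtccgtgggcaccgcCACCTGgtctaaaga
Ryr2, chr13:12106896-12107195, - strand: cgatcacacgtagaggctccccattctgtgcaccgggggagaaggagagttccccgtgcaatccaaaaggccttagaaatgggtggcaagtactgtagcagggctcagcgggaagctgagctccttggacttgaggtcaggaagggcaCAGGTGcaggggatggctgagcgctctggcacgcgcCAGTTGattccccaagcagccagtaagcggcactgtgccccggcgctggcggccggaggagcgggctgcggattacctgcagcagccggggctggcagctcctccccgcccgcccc
The *Itpr2* window held 1 match and the *Ryr2* window 2. Of all 32851 windows of 300 bases, 72.3% held an E-box. ACAAAG, a motif of Sox factors, matched in neither window on either strand, and 18.7% of all windows held it. GC content was 73.3% for *Itpr2* and 65.3% for *Ryr2*, against a median of 52.7% over all windows. Windows were found for 9 of the 10 members.

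*Itpr2* was highest in pre-OLs. It encodes the type 2 IP3 receptor, known as the main IP3 receptor of astrocytes and as a marker of newly formed OLs. Pre-OLs held 1615 CPM (1533 to 1700.2) in the control library, from 1447 UMIs, and 1936 (1878 to 1995) in the WMI library, from 4257 UMIs. OPCs held 481 (448 to 515) and 449.8 (423 to 478). Astrocytes held 233 and 234, and microglia 246 and 252, so that these pairs of glial classes did not differ beyond their intervals. Excitatory neurons held 14.7 (13.5 to 16.0) and 24.8 (23.1 to 26.5), and inhibitory neurons 16.5 and 35.0. Pre-OLs were thus above all other classes in both libraries, and neurons below all other classes. After each cell was thinned to 1000 UMIs, 70.9% of control and 74.4% of WMI pre-OLs held an *Itpr2* UMI. The same share was 36.8% and 32.5% in OPCs and 2.01% and 3.16% in excitatory neurons. Without thinning, 96.7% of pre-OLs in either library held one, and 11.3% and 23.5% of excitatory neurons, at class medians of UMIs that differ.

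**Figure D1:**
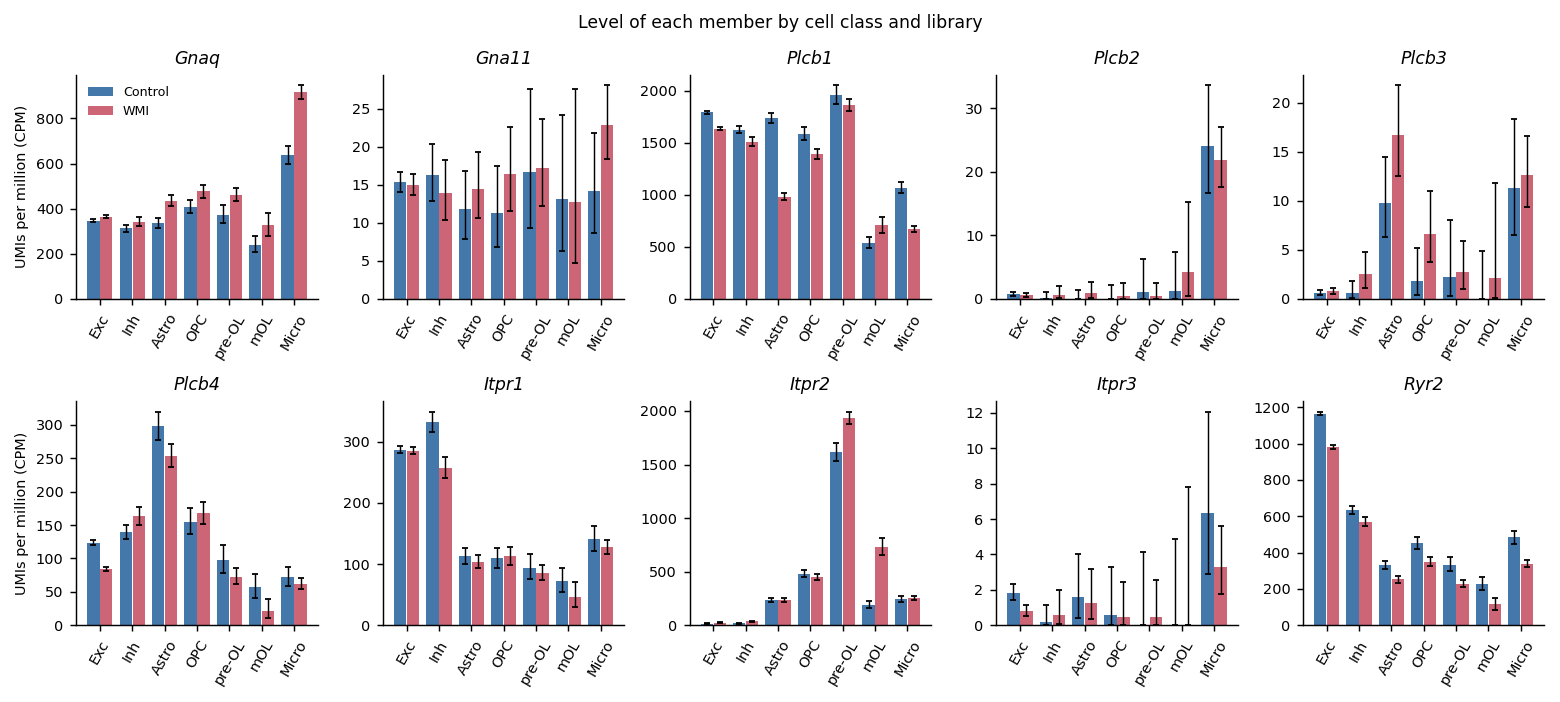
Level of each member in CPM (y axis, a separate scale for each gene) in 7 cell classes (x axis: excitatory neurons, inhibitory neurons, astrocytes, OPCs, pre-OLs, mature OLs, microglia), with bars for the control (blue) and WMI (red) library and exact 95% Poisson intervals. *Itpr2* reaches 1615 and 1936 in pre-OLs, *Ryr2* 1166 and 980.3 in excitatory neurons, *Plcb4* 298 and 254 in astrocytes and *Gnaq* 637 and 917 in microglia.

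*Ryr2* was highest in neurons. This ryanodine receptor amplifies calcium signals and is best known from heart muscle, where it triggers contraction. Excitatory neurons held 1166 CPM (1155 to 1177) in control and 980.3 (969.7 to 991) in WMI, and inhibitory neurons 633 and 570.2. Glial classes lay between 227 and 483 in control and between 114 and 349 in WMI, with mature OLs lowest in both. Across the 11 excitatory clusters with enough cells in WMI, *Ryr2* ranged from 597 in deep-layer neurons with *Fezf2* to 1341 in near-projecting neurons, the latter also highest in control (1498). Among inhibitory clusters, the one with *Sst* among its leading genes was highest in both libraries (950.3 and 852), while another cluster that shared the leading genes *Nxph1* and *Kcnmb2* with it held 528 and 415.

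Of the 7 classes, *Itpr1* was also highest in neurons, but a small cluster without a name held more. It encodes the type 1 IP3 receptor, the main form of neurons and also present in smooth muscle. Inhibitory neurons held 333 (317 to 349) and 257 (241 to 274), and excitatory neurons 287 and 285. This cluster, led by *Slc7a11*, *Bmp6*, *Cped1* and *Ptgds*, carried markers of more than 1 cell type, fibroblast markers among them, and held 608 (509 to 720) in 43 control cells and 652 (574 to 737) in 79 WMI cells. All glial classes lay at or under 141 in both libraries. Astrocytes (113 and 104) and OPCs (109 and 112) did not differ beyond their intervals. *Itpr3*, the type 3 receptor, was at the limit of the depth: microglia held 9 and 13 UMIs, at 6.36 (2.91 to 12.1) and 3.27 (1.74 to 5.59) CPM, and pre-OLs held 0 and 1.

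Phospholipase isoforms were also divided among classes. *Plcb4*, the isoform known from Purkinje cells and retina, was highest in astrocytes (298, 277 to 320, and 254, 237 to 272). OPCs followed with 155 and 167, and inhibitory neurons with 139.8 and 163, pairs whose intervals overlapped. In neurons it varied among clusters, from 34.2 to 191 in control and from 27.0 to 214 in WMI excitatory neurons. *Plcb1*, the broadest isoform, was highest in pre-OLs (1957, 1867 to 2051, and 1863, 1806 to 1921) of the 7 classes taken as a whole. Single excitatory clusters ranged from 1202 to 2133 (2103 to 2164) in control and from 1265 to 2042 (2009 to 2075) in WMI. The highest of these clusters was thus above pre-OLs in both libraries. *Plcb1* was lowest in mature OLs in control (539), and in WMI microglia (671) and mature OLs (705) were lowest, with intervals that overlapped. *Plcb2*, the isoform of blood cells, was highest in microglia, at 24.0 (16.6 to 33.6) and 21.9 (17.5 to 27.0). Microglia held 34 of 72 control and 87 of 133 WMI UMIs. The far more numerous excitatory neurons held 28 and 20, at 0.750 and 0.607 CPM. Control OPCs and astrocytes held 0, which allows up to 1.77 and 1.18 CPM by the limit of 3 counts, with upper bounds of the exact interval at 2.18 and 1.45. *Plcb3* was highest in microglia (11.3 and 12.6) and astrocytes (9.81 and 16.7), classes whose intervals overlapped in both libraries.

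Of the G protein subunits, *Gnaq* was highest in microglia (637, 596 to 679.8, and 917, 887 to 947) and lay between 239 and 409 in the other control classes and between 326 and 477 in the other WMI classes. *Gna11* lay between 11.2 and 16.7 in control and between 12.7 and 22.9 in WMI, and all its control intervals overlapped.

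The genes with the most similar pattern over 15 profiles of class and library, by Pearson's r of log2 levels among 14977 genes, differed for each channel. For *Itpr2* they included *Tcf7l2* (r = 0.971), a transcription factor of the premyelinating stage and one of the markers that named the pre-OLs, and *Rab10* (r = 0.951). For *Ryr2* they were *Tmem63c*, *Lrfn5* and *Gm44678*, for *Plcb4* *Rora* and *Nfib* led, and for *Plcb2* they included *Aim2* and *Ltc4s*, with r from 0.907 to 0.984. The profiles share libraries and depth within a library, and r is given as a description.

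Members differed between OL stages. A gene was counted where each library and stage pair held at least 100 UMIs of it, and 6 members passed: *Gnaq*, *Plcb1*, *Plcb4*, *Itpr1*, *Itpr2* and *Ryr2*. *Itpr2* alone was past 2-fold between OPCs and pre-OLs in the same direction in both libraries, 1 of 6, where 13.1% of the 4129 genes counted were. Its level in pre-OLs was 3.36-fold that in OPCs in control (log2 1.75, 1.62 to 1.87) and 4.30-fold in WMI (2.11, 2.01 to 2.21). *Plcb1* was slightly higher in pre-OLs (log2 0.30, 0.22 to 0.39, and 0.43, 0.36 to 0.49). *Ryr2* was lower (-0.44, -0.64 to -0.24, and -0.61, -0.77 to -0.44), and *Plcb4* also (-0.67, -1.04 to -0.32, and -1.20, -1.48 to -0.93). *Gnaq* differed by less than its interval in both libraries. The share of members past the threshold was near that of all genes.

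**Figure D2:**
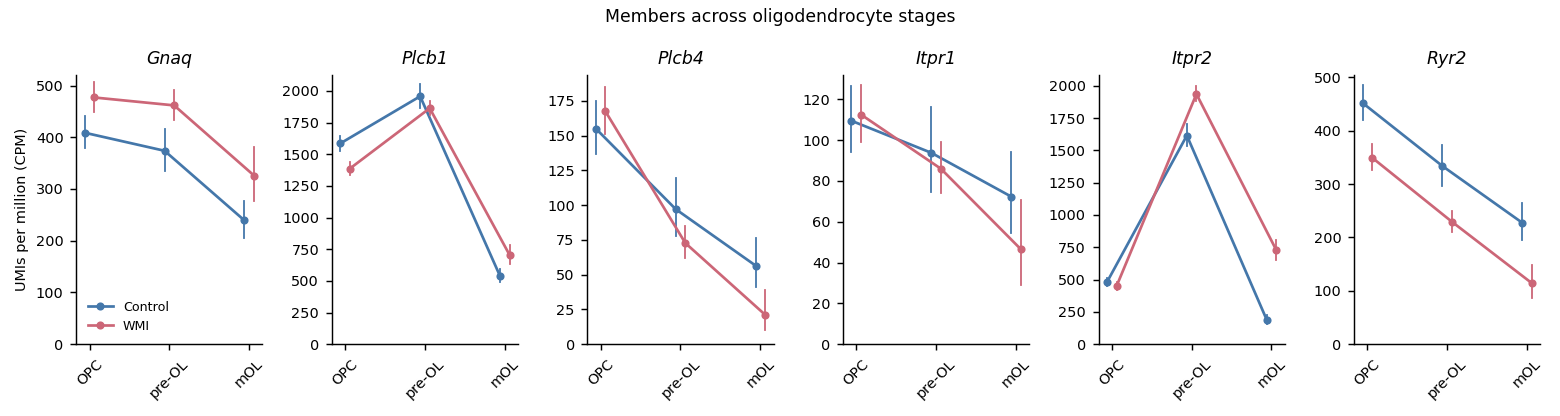
Levels in CPM (y axis, a separate scale for each gene) of the 6 members with enough UMIs in OPCs, pre-OLs and mature OLs (mOL) of the control (blue) and WMI (red) library, with exact 95% Poisson intervals. *Itpr2* peaks in pre-OLs in both libraries and is 189 in control and 728 in WMI mature OLs, while *Plcb4* and *Ryr2* are lower at each later stage.

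Between OPCs and mature OLs, 1 of 6 members, *Plcb4*, was past 2-fold in the same direction in both libraries, where 30% of 3821 genes were. Its level in mature OLs was 56.5 in control, from 43 UMIs, and 21.2 in WMI, from 10 UMIs. *Plcb1* was 2.94-fold lower in control mature OLs than in OPCs and 1.97-fold lower in WMI, and *Ryr2* 1.99-fold and 3.06-fold lower. *Itpr2* went in opposite directions: mature OLs were below OPCs in control (log2 -1.34, -1.61 to -1.09) and above them in WMI (0.70, 0.51 to 0.87). The WMI side rests on 49 cells. Without integration 41 were named, and the log2 ratio of *Itpr2* in WMI to control mature OLs fell from 1.94 to 1.26. How WMI mature OLs then stood against OPCs is not given here. *Ednrb*, the endothelin receptor B gene at the top of the path, was 7.76-fold lower in pre-OLs than in OPCs in control and 6.32-fold lower in WMI. Its levels were 95.2 and 118 in OPCs and 12.3 and 18.6 in pre-OLs, so it was low in the cells in which *Itpr2* was highest. The endothelin receptor A gene, *Ednra*, went the other way, with 6.51 and 13.7 in OPCs and 23.4 and 27.7 in pre-OLs. Its log2 ratios were 1.85 (0.73 to 3.05) and 1.02 (0.37 to 1.69), from only 11 control and 31 WMI UMIs in OPCs.

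Members were compared between cells with and without an *Ednrb* UMI within OPCs and astrocytes of each library. Of 24 ratios of counted members, 21 had intervals that held 0 on the log2 scale, and all 24 lay between -0.56 and 0.16. The same share over all genes is not given, so this count is a description only. *Ednrb* averaged 0.51 and 0.56 UMIs per cell in OPCs and 0.36 and 0.60 in astrocytes. Many cells without a UMI may therefore still express it, and the split cannot decide whether members vary with the receptor. Of control OPCs, 116 held *Ednrb*, and *Itpr2* was 513 (459.98 to 570) in them and 459.98 (419 to 504) in the other 199 (log2 ratio 0.16, -0.05 to 0.36). In WMI the values were 451 in 170 cells and 449 in 307 cells. *Itpr1* in control OPCs was lower in cells with *Ednrb*, at 85.2 (64.5 to 110.4) against 125 (105 to 149), with a log2 ratio of -0.56 (-1.03 to -0.09), and in WMI OPCs the ratio was -0.22 (-0.61 to 0.15). The other intervals off 0 were those of *Plcb1* in WMI OPCs (0.12, 0.01 to 0.22) and *Ryr2* in WMI astrocytes (-0.26, -0.47 to -0.05). In astrocytes *Plcb1* was 1800 and 1712 in control and 1022 and 955 in WMI, with the difference between libraries present in both kinds of cell. Cells with a UMI were deeper, with medians of 5294.5 against 4704 UMIs in control OPCs.

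The comparison of WMI with control addresses which steps of the path differed in the injured cortex. In OPCs, 0 of 6 counted members were past 1.5-fold, where 6.93% of 5672 genes were, and in pre-OLs 0 of 6, where 11.1% of 4773 genes were. *Itpr2* in OPCs had a log2 ratio of -0.10 (-0.23 to 0.04) and *Itpr1* of 0.04 (-0.24 to 0.32). In pre-OLs the ratio of *Itpr2* was 0.26 (0.18 to 0.35), or 1.20-fold, and that of *Ryr2* -0.54 (-0.75 to -0.33). The *Plcb4* ratio was 0.11 (-0.12 to 0.34) in OPCs and -0.42 (-0.80 to -0.02) in pre-OLs.

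In mature OLs, 2 of 4 counted members were past 1.5-fold, where 19.8% of 2027 genes were. *Itpr2* was 189 (159.7 to 223) in control, from 144 UMIs, and 728 (653 to 809) in WMI, from 344 UMIs, a 3.85-fold difference (log2 1.94, 1.66 to 2.23). *Ryr2* was 227 and 114 (log2 -0.99, -1.46 to -0.54). The 49 WMI cells also had more of the pre-OL markers, whose summed level was 1785 in control and 3644 in WMI mature OLs, with 0 of 10 markers at 0. The summed mature OL markers were 12727 and 14272. The part of the stage mix in these ratios was not tested.

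In astrocytes, 1 of 6 counted members was past 1.5-fold, *Plcb1*, where 17.3% of 7603 genes were. *Plcb1* held 4425 UMIs in control and 3179 in WMI astrocytes, at 1736 (1685 to 1788) and 982 (949 to 1017) CPM, 1.77-fold lower in WMI (log2 -0.82, -0.89 to -0.76). *Gnaq* was 1.30-fold higher (0.37, 0.25 to 0.50), *Ryr2* 1.31-fold lower (-0.39, -0.53 to -0.25) and *Itpr2* equal within its interval (0.01, -0.15 to 0.16). The median log2 ratio of all genes in astrocytes was 0.10, and scaling by edgeR's TMM shifted every ratio there by -0.11, which brings *Plcb1* to -0.93. The summed level of 10 excitatory neuron markers in astrocytes was 2358 in control and 1765 in WMI, with 0 of 10 at 0. Excitatory neurons held *Plcb1* at 1791 and 1635, and the part of neuronal RNA in the astrocyte ratio was not tested.

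In microglia, 2 of 8 counted members were past 1.5-fold, where 23.6% of 7844 genes were. *Plcb1* was 1068 and 671 (log2 -0.67, -0.76 to -0.58), and *Gna11* 14.1 and 22.9 (0.70, -0.01 to 1.47), from 20 and 91 UMIs. The interval of *Gna11* reached 0, and *Plcb1* stayed past 1.5-fold under 5 of 10 alternatives. *Gnaq* was 1.44-fold higher in WMI microglia (0.53, 0.42 to 0.63), *Plcb2* equal within its interval (-0.13, -0.72 to 0.48) and *Ryr2* 1.42-fold lower. The 10 microglia markers summed to 4147 in control and 4740 in WMI microglia. Excitatory neuron markers summed to 4418 and 3622 in the same cells, with 0 of 10 at 0. The 2 sums cover different genes and are not compared with each other. *Mef2c* is among the neuron markers, and the part of each gene is not given here. The sum may therefore not measure neuronal RNA alone. The part of neuronal RNA in the microglial levels and in the *Plcb1* and *Ryr2* ratios was not tested.

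**Figure D3:**
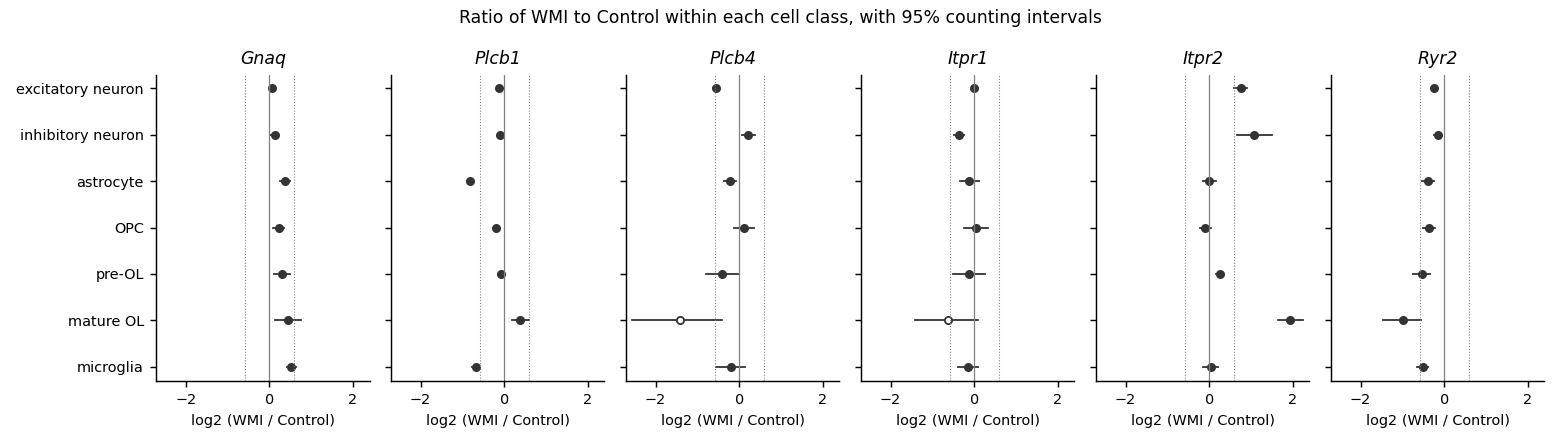
Log2 ratio of WMI to control (x axis) of the 6 deepest members within each of 7 cell classes (y axis), with points for the ratio, lines for the exact 95% interval, open points where the libraries together held under 100 UMIs, and dotted lines at 1.5-fold. *Gnaq* lies right of 0 and *Ryr2* left of 0 in all 7 classes, and *Itpr2* in neurons and mature OLs and *Plcb1* in astrocytes and microglia lie past 1.5-fold.

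In neurons *Itpr2* was low but higher in WMI. It was 1 of 7 counted members past 1.5-fold in excitatory neurons, where 13.4% of 15316 genes were, and 1 of 7 in inhibitory neurons, where 8.42% of 8299 genes were. The log2 ratios were 0.75 (0.60 to 0.91, from 548 and 816 UMIs) and 1.08 (0.67 to 1.51, from 80 and 126 UMIs). All 11 excitatory and all 3 inhibitory clusters with at least 50 cells in each library had more in WMI, with mean log2 ratios of 0.84 and 1.12. A shallow excitatory cluster of 1180 control and 15 WMI cells had the highest control value (46.4), and without clusters of 1 library the ratio was 1.00. At a resolution of 0.4 it was 0.36 and with the mean of per-cell levels 0.39, both under 1.5-fold. The pre-OL markers summed to 693 and 829 in excitatory and to 648 and 784 in inhibitory neurons, 0 of 10 were at 0 in each, and pre-OLs made up 1.71% of control and 5.51% of WMI cells. The part of free RNA from pre-OLs in the neuronal *Itpr2* was not tested.

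**Figure D4:**
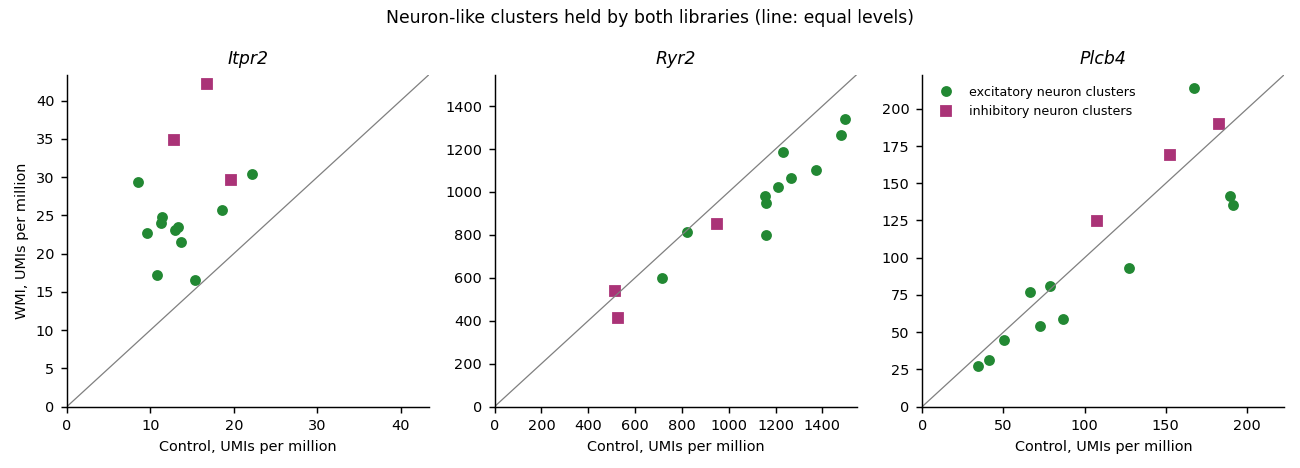
Level of *Itpr2*, *Ryr2* and *Plcb4* in CPM in neuron clusters with at least 50 cells in each library. Control is on the x axis and WMI on the y axis, with circles for excitatory and squares for inhibitory clusters. A line marks equal levels. All 11 excitatory and 3 inhibitory clusters lie above the line for *Itpr2*, and all 11 excitatory clusters lie below it for *Ryr2*.

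The other counted members in neurons differed less. Members under 100 UMIs could differ more, from few UMIs. *Itpr3* in excitatory neurons had a log2 ratio of -1.21 (-1.92 to -0.54), from 68 and 26 UMIs. *Plcb3* in inhibitory neurons had 2.01 (0.01 to 4.53), from 3 and 9 UMIs. *Ryr2* had a log2 ratio of -0.25 (-0.27 to -0.23) in excitatory neurons and was lower in WMI in all 11 clusters. *Plcb4* was 123.8 and 84.5 in excitatory neurons (log2 -0.55, -0.62 to -0.48), but the mean ratio within clusters was -0.24 and 3 of 11 clusters were higher in WMI. *Itpr1* in excitatory neurons as a class did not differ beyond its interval (-0.01, -0.05 to 0.03). Its ratios within clusters ran from -0.56 to 0.35, and 6 of 11 clusters were higher in WMI. In inhibitory neurons *Itpr1* was lower (-0.37, -0.49 to -0.25), and all 3 clusters were lower in WMI.

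*Gnaq* and *Ryr2* each kept the same direction in all 7 classes, though not in every neuron cluster. Of clusters with at least 50 cells in each library, 8 of 11 excitatory ones had more *Gnaq* in WMI, and 1 of 3 inhibitory ones had more *Ryr2*. *Gnaq* was higher in WMI in 7 of 7 classes, with log2 ratios from 0.07 in excitatory neurons to 0.53 in microglia, and all 7 intervals lay above 0. *Ryr2* was lower in 7 of 7 classes, from -0.15 in inhibitory neurons to -0.99 in mature OLs, and all 7 intervals lay below 0. The summed excitatory neuron markers were also lower in WMI in all 7 classes, such as OPCs (2529 and 1994) and mature OLs (1600 and 940). Excitatory neurons made up 48.7% of control and 37.1% of WMI cells. The part of neuronal RNA in the *Ryr2* ratios was not tested. The summed microglia markers were higher in WMI in all 7 classes, such as excitatory neurons (119 and 278) and OPCs (184 and 558). Microglia, the class highest in *Gnaq*, made up 4.87% of control and 15.0% of WMI cells. The part of microglial RNA in the *Gnaq* ratios was not tested. Of the 1819 genes with at least 100 UMIs in every class, 7.20% were higher in all 7 classes and 7.15% lower, and 4 members were among these 1819. Both directions held under every other choice of cells, clusters and scaling that covered the 7 classes. All classes came from the same pair of libraries, so they are not 7 separate comparisons.

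Other genes of the path were taken from 9 fixed lists and read in the same way, beside the 17.3% of all counted genes past 1.5-fold in astrocytes, 6.93% in OPCs and 11.1% in pre-OLs. Among endothelin genes in astrocytes, *Ednra*, the endothelin receptor A gene, was 14.1 and 36.2 (log2 1.36, 0.81 to 1.94) and *Ednrb* 71.4 and 118 (0.72, 0.46 to 0.98), while *Ece1*, which encodes an enzyme that makes active endothelin, was 47.5 and 31.5 (-0.59, -0.99 to -0.20). The 3 were all the list's counted genes there. Of 10 counted receptors coupled to Gq, *Lpar1*, a receptor for lysophosphatidic acid, was higher (7.06 and 41.1), and *Hrh1* and *Adra1b*, receptors for histamine and noradrenaline, were lower (53.7 and 27.8, and 22.4 and 13.3). The list's median log2 ratio was -0.19, against 0.10 for all genes. *Lpar1* is also an OL gene, and pre-OL markers in astrocytes summed to 773 and 1333, whose part was not tested.

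Downstream in astrocytes, *Plce1*, another phospholipase C, was 175 and 532 (log2 1.61, 1.46 to 1.76), 1 of 7 counted relatives of the members past 1.5-fold. Of all 7603 genes counted in astrocytes, 17.3% were past it, and the list counts here are read beside that share. *Prkca*, a protein kinase C that diacylglycerol activates, was 288 and 657 (1.19, 1.07 to 1.31), 1 of 9 counted. *Itpkb*, a kinase that removes IP3, was 34.1 and 77.6, and *Dgkg*, a diacylglycerol kinase, 39.2 and 83.7, 2 of 18 counted. Of 5 counted regulators of Gq, *Rgs3* (25.1 and 12.98) and *Arrb1* (144 and 81.3) were lower. *Ahcyl1*, which binds IP3 receptors, was 388 and 245 (-0.67, -0.80 to -0.53), and *Jph1*, a junctophilin, 38.8 and 21.6, 2 of 10 counted partners of the channels.

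In OPCs, 6.93% of all 5672 counted genes were past 1.5-fold. So were 2 of 6 counted receptors, 1 of 2 regulators, 1 of 16 lipid enzymes, 1 of 9 store genes and 1 of 13 calcium-bound targets. None were among the 2 counted endothelin genes, 5 relatives of the members, 9 diacylglycerol targets and 9 partners of the channels. *Hspa5*, a chaperone of the endoplasmic reticulum, was 47.9 and 93.9 (log2 0.97, 0.59 to 1.36), and the receptor genes *Chrm3* (477 and 304) and *Adra1a* (54.4 and 31.0) were lower. Of the calcium-bound targets, such as calmodulins and their kinases, *Calm3* was lower in OPCs (43.8 and 28.3) and in astrocytes (42.4 and 27.2), and *Camk2d* higher in pre-OLs (91.5 and 146). In pre-OLs, *Hspa5* (65.8 and 104) and *Stim2*, a sensor of the calcium store (71.4 and 108), were higher, and the receptor genes *Lpar1* (138 and 61.8) and *Ptger1* (58.0 and 36.8) were lower. Past 2-fold between OPCs and pre-OLs in both libraries, as 13.1% of 4129 counted genes were, *Lpar1* and *Plcl1* were higher in pre-OLs. *Lpar1* had log2 ratios of 5.87 (4.48 to 7.77) and 2.60 (1.96 to 3.31), from only 4 control and 23 WMI UMIs in OPCs. *Plcl1*, a relative of phospholipase C without its activity, had 1.55 and 1.02. *Plce1* (-3.14 and -2.77), *Ryr3*, another ryanodine receptor (-1.22 and -1.26), *Dgkb* (-1.58 and -1.44), *Prkd1*, a kinase that diacylglycerol activates (-1.72 and -1.72), and *Bcl2* (-2.21 and -1.81) were lower. Counted in these lists were 5 receptors, 4 relatives of the members, 8 lipid enzymes, 7 diacylglycerol targets and 7 partners of the channels. The store genes *Atp2a2*, the calcium pump, and *Mcu*, the mitochondrial uniporter, differed by less than their intervals between these stages (-0.01 and 0.12 for *Atp2a2*, 0.05 and -0.05 for *Mcu*).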

How the data were processed

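UMI counts per gene and barcode were measured for 1 control and 1 WMI library. The deposited values are whole-number counts that the authors made with Cell Ranger (cellranger 6.1.1 in the header) and left without normalization. Each of the 55450 gene identifiers, with its symbol, was found in GENCODE M21 (GRCm38), whereas the submitters' processing notes name mm9 and Seurat. Whether introns were counted is not given in the sources used here.

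Groups came from the labels. The control library held 66470806 UMIs in 10288 barcodes and the WMI library 60568639 in 8354. Cells needed at least 1000 UMIs, at least 500 genes and at most 10% mitochondrial UMIs (748 and 241 barcodes did not pass), and those remaining were freed of predicted doublets (728 and 527, at 0.8% per 1000 barcodes, against simulated ones). Both libraries were integrated in R 4.3.3, with Seurat 5.3.0 (2000 variable features without the members, the listed genes and sex-linked genes, 30 dimensions, resolution 0.8). Clusters were named from marker lists: a marker counted if it reached 25% of its top cluster, 10% of cells and 3-fold the lower quartile of clusters. A name needed 4 such markers and 40% of its list. Where no list got there, a neuronal name was given at 60% of its list without the quartile condition. A name was then withheld where 2 mitochondrial genes led the cluster or where its leading genes were of another class. It was also withheld where the list of an unrelated class was met. These thresholds were set after the clusters were seen.

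UMIs were summed per class and library. Intervals are exact Poisson (levels), Clopper-Pearson (shares) and conditional binomial (ratios), computed with scipy 1.17.1, and cover counting error only. The ratio interval was tested on counts simulated from a Poisson model. Those counts held no variation between cells, mice or libraries, so that test also covers counting error only. A gene was counted at 100 UMIs over a pair, and the thresholds were 1.5-fold between libraries and 2-fold between stages. No test was run across samples, since each group is 1 library. All members are described. From each list, the 3 most abundant genes in OL-lineage cells and at most 4 past 1.5-fold in OPCs, pre-OLs or astrocytes could be named, and other list genes in the text were chosen after their values were seen. Similar genes are the 3 with the highest r among genes with at least 200 UMIs. Some genes that these rules name are not reported here. The members and lists were chosen with earlier results of these data known. Alternatives were cell limits, doublets, resolution, integration, clusters of 1 library, *Xist*-holding cells, scaling (edgeR 4.0.16) and low-count filters, and 1 alternative, the mean of ratios within clusters, was added after seeing the data.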

Additional observations from a re-analysis of the deposited data

How the results depend on the processing

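No paired analysis was possible because each group is 1 library, and no replicate could be left out. All ratios between libraries and stages that were past their threshold kept their direction under every alternative that gave a value, and the 6 counted members in OPCs stayed under 1.5-fold in each of them. Counts of members past the threshold depended on the filter and on other settings. The share of all genes past the threshold in each setting is not given beside these counts. They are therefore read only as dependence on the setting. With at least 1 UMI they were 4 (mature OL against OPC), 2 (excitatory neurons), 4 (inhibitory neurons), 3 (astrocytes), 2 (OPCs), 2 (pre-OLs) and 6 (mature OLs), and with at least 50 UMIs 2 (excitatory neurons), 2 (astrocytes) and 4 (mature OLs). Without WMI cells that held *Xist* the counts were 2 (mature OL against OPC), 1 (pre-OLs) and 1 (microglia). With the mean of per-cell levels they were 2 (mature OL against OPC), 0 (excitatory neurons) and 1 (microglia), and without integration 2 (mature OL against OPC) and 1 (microglia). With doublets kept they were 2 (excitatory neurons) and 0 (microglia), with no limits on cells 2 and 1, at resolution 0.4 0 (excitatory neurons), and at resolution 1.6 1 (microglia). *Itpr2* in mature OLs ranged from 1.26 (without integration) to 2.21 (log2), *Itpr2* in inhibitory neurons from 0.72 to 1.12, *Plcb1* in astrocytes from -0.93 to -0.73 and in microglia from -0.68 to -0.44. *Itpr2* in pre-OLs against OPCs ranged from 1.72 to 1.83 in control and from 2.03 to 2.28 in WMI. The causes were not tested. Depth limits *Plcb2*, *Plcb3*, *Itpr3* and *Gna11*, and WMI mature OLs.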

Other observations

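Outside the 7 classes, members followed other cells that the control library held in small number. Striatal projection neurons (2 control and 98 WMI cells) held *Plcb1* at 2195 CPM (2097 to 2297), *Itpr1* at 300.5 and *Ryr2* at 764, and *Itpr2* at 28.2 (18.0 to 41.9). The small cluster led by *Slc7a11*, *Bmp6*, *Cped1* and *Ptgds*, which had no name, held *Itpr2* at 209 (153 to 278) in control and 273 (224 to 330) in WMI, *Plcb4* at 227 and 247, and *Plcb1* at 1130 and 745 (log2 ratio -0.60, -0.85 to -0.35). *Itpr3* was 15.5 (5.67 to 33.7) there in WMI, from 6 UMIs, and *Ednra*, the endothelin receptor A gene, was 87.6 (60.7 to 122) from 34 UMIs.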
